A study of Homo sapiens with 16 samples.

Results

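The genes described here encode the proteasome: its subunits, its activators and inhibitor, and the factors that assemble it. They were taken as the transcript clusters that carry a single gene symbol made of PSMA, PSMB, PSMC, PSMD, PSME, PSMF or PSMG and a number, with the brightest cluster kept for a gene. This rule found 37 genes of 14232 with a cluster of their own, on arrays of 22011 clusters in all. Of the 37 genes, 36 encode parts, regulators or assembly factors of the proteasome. The remaining one, PSME3IP1, encodes a protein that binds the activator PSME3 and is not itself a proteasome part. The lists of the complex hold 48 genes, of which 36 had a cluster of their own, 4 had only a cluster shared with another gene (PSMB9, PSMD14, PSMG2 and PSMG4) and 8 were named by no cluster (PSMA6, PSMA8, PSMB11, PSMC1, PSMC5, PSMC6, PSMD7 and PSMD13).

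Expression was measured in GIST T1, a cell line of a human gastrointestinal stromal tumor, on 16 Affymetrix Human Exon 1.0 ST arrays, to look for genes that respond when genes whose loss sensitizes the cells to imatinib are silenced. Cells were reverse transfected with siRNA at 50 nM. Of the arrays, 2 held cells given siCON, a non-targeting siRNA, labelled 24 h and 72 h, and each of 14 held cells in which 1 gene was silenced. These were 10 zinc finger genes (ZNF91, ZNF100, ZNF429, ZNF43, ZNF85, ZNF254, ZNF708, ZNF665, ZNF528 and ZNF431) together with 4 further genes, namely the transcription factor gene GTF2I, the IGF2 receptor gene IGF2R, the growth factor binding protein gene IGFBP2 and RASSF8. No drug treatment is labelled for any array, and the sources used here do not give the time at which the knockdowns were harvested. Each silenced gene was measured once in a single cell line, and no label ties an array to a culture of its own, so the p-values rest on the variation among these 16 arrays, which may be technical.

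The 26S proteasome is the protease that degrades ubiquitin-tagged proteins. Its 20S core is a barrel of alpha and beta rings, with the cutting sites of PSMB5, PSMB6 and PSMB7 on the inside, and the 19S particle caps the barrel with a base of ATPases that unfold the substrate and a lid that removes the ubiquitin. Interferon induces the alternative catalytic subunits PSMB8, PSMB9 and PSMB10 and the activator PSME1 and PSME2, which tune the cleavage towards peptides for MHC class I, while the transcription factor NRF1 (gene NFE2L1) raises the constitutive subunits together when proteasome activity is short.

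Values are log2 expression estimates, so that a difference of 1 is a doubling of the estimate, and levels of the proteasome genes are not ranked against each other. Bright and dim say only where a cluster lay among all clusters of its array. The siCON arrays differed little in these genes. The size of the difference between 72 h and 24 h had a median of 0.07 over the 37 genes and reached 0.24 in PSMB8, against a median size of 0.11 over all clusters. The spread of an array, taken as the SD over its clusters, was 2.27 and 2.26 in siCON and from 2.16 (IGF2R) to 2.27 (ZNF429) in the knockdowns. Of the 14 silenced genes, 5 had a cluster of their own, and all 5 were lower than the siCON mean on their own array, by a difference between −1.42 (ZNF254) and −0.18 (ZNF528, dim in siCON at 4.65 and 4.80). In 4 of the 5 that array was the lowest of all 16, and for ZNF43 it was the third lowest, at 9.77 with another array at 9.55. The stromal tumor markers KIT (13.42 and 13.28 on the siCON arrays) and ANO1 (12.90 and 12.93) were bright. The stromal tumor marker ETV1 was above both controls on all 14 knockdown arrays (0.62, limma adjusted p = 0.109). Of the leukocyte markers PTPRC (at most 4.15 on any array) and CD3E (at most 5.42) were dim, CD14 lay between 6.91 and 7.86, and CD68, at 8.25 and 8.28 in siCON and up to 8.96, was above the array medians. The endothelial markers PECAM1, CDH5 and VWF reached 5.63, 7.09 and 6.93. Of the epithelial markers EPCAM and CDH1 were dim (at most 5.50 and 6.08), while the keratins KRT8 and KRT18 were bright and KRT19 lay between 7.48 and 8.38. KRT8 was above both controls on all 14 knockdown arrays (0.51, limma adjusted p = 0.254) and KRT18 below both on all 14 (−0.53, limma adjusted p = 0.230), and CD3E was above both on all 14 (0.35, limma adjusted p = 0.283). The part of these markers in the results below was not tested.

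Most proteasome genes lay lower in the knockdowns than in siCON by a small amount, and no single gene passed the test. In limma, with adjustment over all clusters, 0 of the 37 genes were called lower, against 0.282% of all clusters, and 0 were called higher, against 0.259%. The smallest adjusted p of a member was 0.170. At an unadjusted p below 0.05 limma counted 11 of the 37 genes lower (29.7%), against 6.93% of all clusters, and 0 higher, against 7.77%. The t-test of the methods, run on the same values, counted 13 lower at that level and 0 after Benjamini-Hochberg adjustment. The share of all clusters at the unadjusted level is not given here for the t-test. PSMD2 lay just above the threshold of 0.05, at a t-test adjusted p of 0.0502. The count at an unadjusted p below 0.05 rested on both siCON arrays, since a fit with 1 of them has less power for every cluster. The median over the 37 genes was −0.19 without the 24 h array and −0.24 without the 72 h array, with 32 genes lower in each.

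The direction was shared across the complex, with every gene set against the same 2 siCON arrays. The arrays measure RNA of whole cultures, so fewer cells that express a gene and less of its RNA per cell cannot be told apart. The mean over the 14 knockdowns was below the siCON mean in 32 of 37 genes (86.5%), and the median difference was −0.23. Over all clusters the median was 0.07, with 40.6% of clusters lower. Brightness went along with the direction: among the 2910 clusters whose mean lay between 9.58 and 10.90, the quartiles of the proteasome genes, the median was −0.08 and 63.1% were lower. The part of brightness in the result was not tested further. In 10 genes (27.0%) every knockdown array lay below both siCON arrays, against 4.52% of all clusters: PSMA3, PSMA7, PSMB1, PSMB7, PSMC3, PSMD2, PSMD5, PSMD12, PSME3 and PSMG1. In 0 genes did all 14 lie above both, against 4.81% of all clusters.

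**Figure D1:**
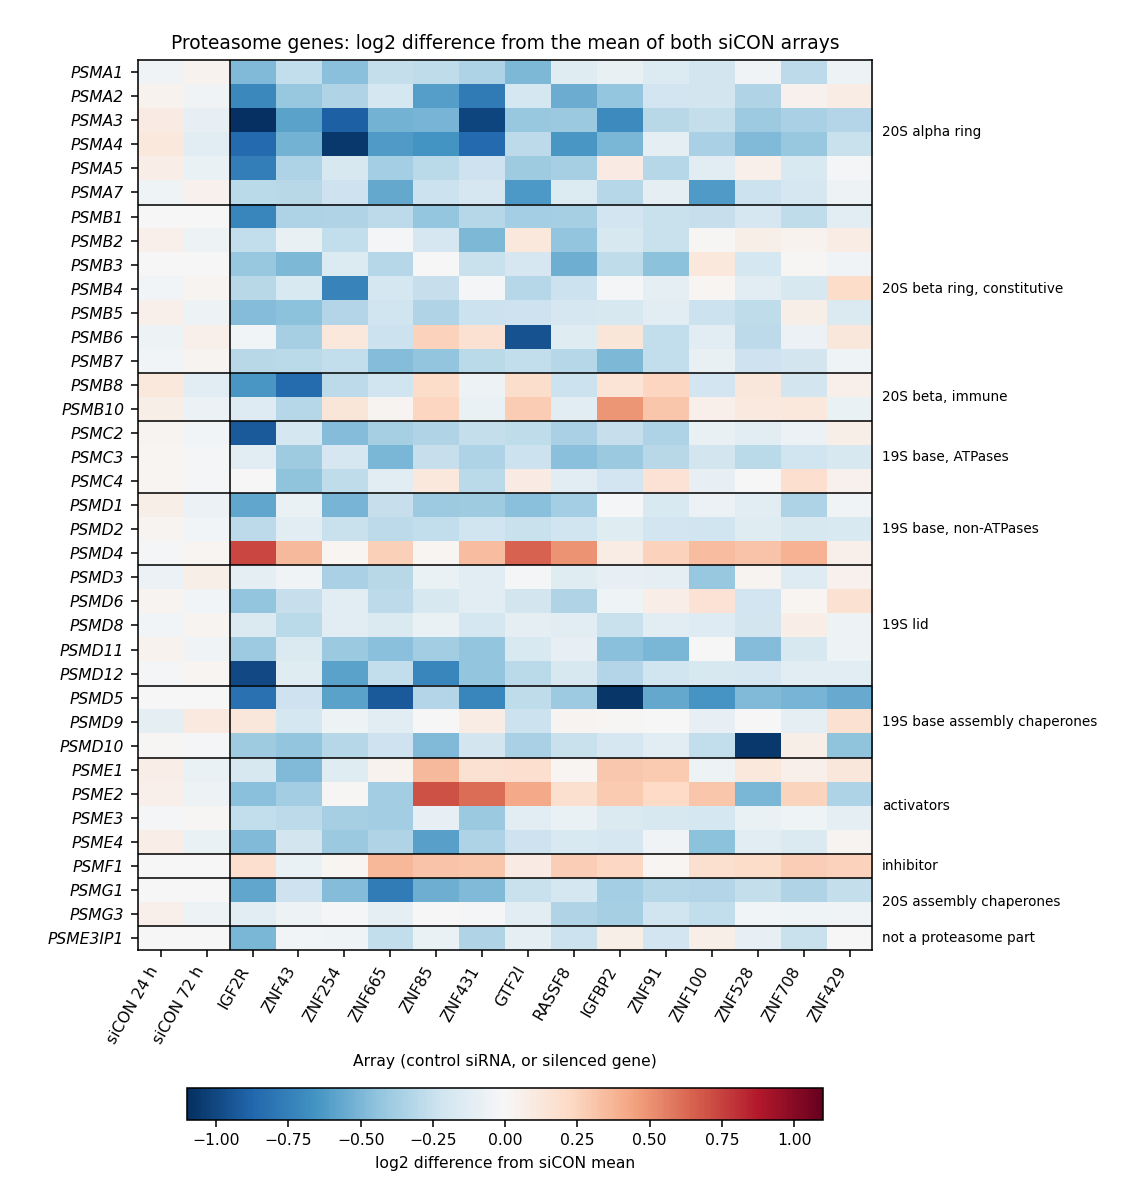
Log2 difference of each proteasome gene (rows, grouped by subcomplex) from the mean of both siCON arrays, for each array (columns, the knockdowns ordered by their median over the 37 genes). Blue is lower and red higher than siCON; the core, lid and chaperone rows are mostly blue, PSMD4 and PSMF1 are red on most arrays, and PSMB8, PSMB10, PSME1 and PSME2 differ between arrays.

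The 6 measured alpha subunits, which form the outer rings and the gate of the core, were all lower, with differences from −0.56 to −0.24 and a median of −0.32. PSMA3 was at 10.64 and 10.46 on the siCON arrays and at 9.46 (lowest, IGF2R), 10.09 (median) and 10.29 (highest, ZNF100) on the knockdown arrays. The groups did not overlap. The difference was −0.56 (SE 0.188, limma adjusted p = 0.224, exact permutation p = 0.025 two-sided). PSMA4 had 11.25 and 11.03 in siCON and 10.08 (ZNF254), 10.63 and 11.04 (ZNF91) as lowest, median and highest of the knockdowns. Only the ZNF91 array reached into the range of siCON, and the difference was −0.54 (SE 0.185, limma adjusted p = 0.226, exact permutation p = 0.0333). PSMA7 lay below both siCON arrays on all 14 knockdown arrays and PSMA1 on 13, and their differences were −0.29 and −0.25. PSMA2 and PSMA5 were at −0.34 and −0.24, each with 2 knockdowns above the siCON mean.

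The 7 constitutive beta subunits were also all lower, from −0.32 to −0.12 with a median of −0.23. PSMB1, a subunit without a cutting site, was at 10.66 and 10.65 in siCON and at 9.94 (IGF2R), 10.36 and 10.53 (ZNF429) as lowest, median and highest of the knockdowns. No knockdown reached siCON, with a difference of −0.32 (SE 0.115, limma adjusted p = 0.243). PSMB7, which carries the trypsin-like site, was at 11.12 and 11.17 in siCON and between 10.65 (IGFBP2) and 11.09 (ZNF429) in the knockdowns, with a median of 10.86. Here too the groups stayed apart, by −0.28 (SE 0.109, limma adjusted p = 0.264). PSMB5, which carries the chymotrypsin-like site that bortezomib blocks, was at 11.58 and 11.47 in siCON and between 11.05 (IGF2R) and 11.59 (ZNF708), median 11.30, in the knockdowns. Its difference was −0.24 (SE 0.113, limma adjusted p = 0.338), and ZNF708 was the single array above siCON. PSMB6, which carries the caspase-like site, was at 11.33 and 11.44 in siCON, with a knockdown median of 11.29 and a highest value of 11.63 (ZNF85). Its GTF2I array stood at 10.43, a difference of −0.95, while the next lowest array was ZNF43 at 11.02. The mean difference of PSMB6 was −0.12 (SE 0.210, limma adjusted p = 0.750). PSMB2, PSMB3 and PSMB4 were at −0.13, −0.23 and −0.17 and were not below both siCON arrays on 6, 3 and 4 knockdown arrays.

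The interferon-inducible catalytic subunits lay on both sides of siCON. The constitutive PSMB6 did so too, with 8 knockdown arrays below both controls and 5 above both. The contrast between inducible and constitutive subunits was not tested. PSMB8, the inducible counterpart of PSMB5, was at 8.28 and 8.04 in siCON and between 7.32 (ZNF43) and 8.40 (ZNF91), median 8.04, in the knockdowns. The arrays lay on both sides of siCON, 7 below both controls and 5 above both, and the mean difference was −0.12 (SE 0.221, limma adjusted p = 0.755). PSMB10, the inducible counterpart of PSMB7, was at 8.37 and 8.24 in siCON and between 7.996 (ZNF43) and 8.79 (IGFBP2), median 8.39, in the knockdowns. It too lay on both sides, with 5 arrays below and 7 above both controls and a difference of 0.07 (SE 0.154, limma adjusted p = 0.790). PSMB9, the counterpart of PSMB6, was measured only by a cluster shared with the antisense gene PSMB8-AS1, at 9.64 and 9.33 in siCON and between 8.64 (ZNF43) and 10.40 (ZNF91) in the knockdowns, so no value belongs to PSMB9 alone.

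The 2 subunits of the interferon-inducible activator also lay on both sides of siCON. PSME1 (PA28 alpha) was at 9.83 and 9.69 in siCON and between 9.27 (ZNF43) and 10.12 (ZNF85), median 9.84, in the knockdowns, with a difference of 0.06 (SE 0.160, limma adjusted p = 0.844). PSME2 (PA28 beta) had the widest spread of all 37 genes, with an SD of 0.41 over the knockdowns. It was at 9.13 and 9.01 in siCON and between 8.56 (ZNF528) and 9.77 (ZNF85), median 9.27, in the knockdowns, with a difference of 0.06 (SE 0.272, limma adjusted p = 0.901). For PSME1, 7 knockdown arrays lay above and 3 below both controls, and for PSME2, 8 above and 5 below. The other activator genes, which do not belong to the interferon group, were lower. PSME3 (PA28 gamma, the nuclear activator) was at 11.03 and 11.06 in siCON and between 10.64 (ZNF431) and 11.004 (ZNF708), median 10.88, in the knockdowns. Its groups did not overlap (−0.20, SE 0.107, limma adjusted p = 0.367). PSME4 (PA200) was at 10.69 and 10.55 in siCON and between 10.02 (ZNF85) and 10.65 (ZNF429), median 10.41, in the knockdowns. Of its knockdown arrays, 12 lay below both controls and 0 above both (−0.26, SE 0.136, limma adjusted p = 0.356).

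By array, PSMB8, PSMB10, PSME1 and PSME2 were all lower than the siCON mean on the ZNF43 array, by differences of −0.84, −0.31, −0.48 and −0.39. They were all lower on the IGF2R array as well, by −0.64, −0.14, −0.18 and −0.46. All 4 were higher on the GTF2I, ZNF91, ZNF85 and IGFBP2 arrays, where the differences ran from 0.15 (PSMB8 on IGFBP2) to 0.70 (PSME2 on ZNF85). On the other 8 arrays the signs were mixed. On ZNF528 PSME2 alone was lower, at −0.51, while the other 3 genes were at 0.12 (PSMB8), 0.11 (PSMB10) and 0.12 (PSME1). The cluster shared by PSMB9 and PSMB8-AS1 was at −0.84 on ZNF43 and at 0.92 on ZNF91, 0.76 on IGFBP2 and 0.63 on ZNF85, but also at 0.56 on ZNF528, where the 4 genes were mixed, and at only −0.16 on IGF2R. TAP1, the peptide transporter encoded beside PSMB9 and PSMB8, was at −0.86 on ZNF43, 0.86 on ZNF91, 0.69 on IGFBP2 and 0.67 on ZNF85. TAP1 was at 10.14 and 9.78 in siCON. It also had the sign of the 4 genes on IGF2R (−0.12) and GTF2I (0.22). At 9.84 on IGF2R it lay between the controls, and at 10.18 on GTF2I it lay just above both. It differed from siCON as well on arrays where the signs of the 4 were mixed, at −0.66 on ZNF254 and 0.47 on ZNF431. The constitutive PSMB7 was lower than siCON on all 14 arrays, at −0.27 on ZNF91 and −0.49 on IGFBP2, opposite to the 4 inducible genes there. PSMB5 was at −0.11 on ZNF91 and −0.18 on IGFBP2. The constitutive PSMB6 was at −0.27 on ZNF91, but at 0.13 on IGFBP2 and 0.25 on ZNF85, the side of the inducible genes. With 1 array for each knockdown, these differences have no replicate check.

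**Figure D2:**
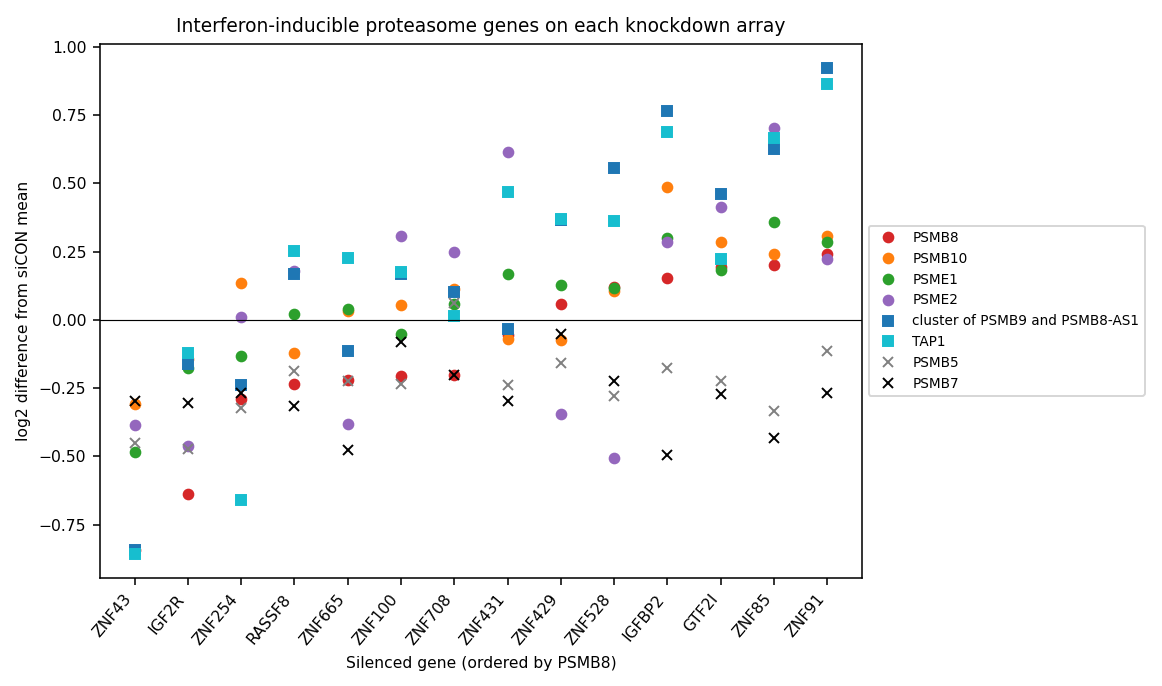
Log2 difference from the siCON mean on each knockdown array, ordered by PSMB8, for the interferon-inducible proteasome genes (circles), the shared cluster of PSMB9 and TAP1 (squares) and the constitutive PSMB5 and PSMB7 (crosses). The inducible genes lie below 0 on ZNF43 and IGF2R and above 0 on GTF2I, ZNF91, ZNF85 and IGFBP2, while PSMB7 is below 0 on every array.

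These 4 inducible genes also held a sequence in common at their starts. The RefSeq table of promoters (GRCh38.p14, 250 bases before to 50 after a gene's start) held 31 of the 37 genes, and GAAANNGAA, the core of the interferon-stimulated response element read on either strand, was found in 7 of the 31 (22.6%) against 9.86% of the 27305 genes in the table. Before the start alone it was found in 4 (12.9%) against 8.41%, with PSMB10 and PSME2 among them. The promoter of PSMB9, the inducible gene without a cluster of its own, held no such core. In PSMB8, PSMB10, PSME1 and PSME2 the core was the same, GAAAGCGAA, which was present in 90 genes of the table (0.330%) and in no other of the 31. This comparison of the cores was made after the values had been seen. The 4 windows follow, each written 5′ to 3′ along its gene, with the core, or its reverse complement where the match is on the opposite strand, in capitals. They are shown because these are the interferon-inducible members with a cluster of their own, which lay on both sides of siCON.
PSMB8: atctgtggctTTCGCTTTCacttcctcct
PSMB10: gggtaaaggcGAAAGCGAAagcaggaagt
PSME1: ccctaccgctTTCGCTTTCccttcgcggt
PSME2: cctggggagtGAAAGCGAAagcccgggcg
The window of PSMB8 lies on the minus strand at chr6:32844032-32844060, that of PSMB10 on the minus strand at chr16:67936853-67936881, that of PSME1 on the plus strand at chr14:24136190-24136218 and that of PSME2 on the minus strand at chr14:24146620-24146648. In PSMB8, PSMB10 and PSME2 the core begins 3, 21 and 28 bases before the annotated start, and in PSME1 just after it. A match is a description of the letters and not a measured binding site.

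In the 19S base, the 3 measured ATPases were lower, with a median of −0.29. PSMC3 was at 10.35 and 10.32 in siCON and between 9.83 (ZNF665) and 10.21 (IGF2R), median 10.06, in the knockdowns. No array reached siCON, and the difference was −0.29 (SE 0.102, limma adjusted p = 0.235, exact permutation p = 0.00833, the smallest that 120 choices of arrays can give). PSMC2 was at 10.70 and 10.63 in siCON and between 9.74 (IGF2R) and 10.73 (ZNF429), median 10.39, in the knockdowns. Its IGF2R array stood apart at a difference of −0.92, and the mean difference was −0.29 (SE 0.165, limma adjusted p = 0.381). PSMC4 was at −0.07, with 7 arrays below and 5 above both controls.

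The non-ATPase scaffold subunits of the base were lower too. PSMD2 had the tightest knockdown values of all 37 genes, with an SD of 0.06. It was at 12.01 and 11.96 in siCON and between 11.69 (ZNF665) and 11.86 (ZNF43), median 11.76, in the knockdowns. The groups did not overlap, and the difference was −0.21 (SE 0.0801, limma adjusted p = 0.263). PSMD1 was at 11.21 and 11.07 in siCON and between 10.57 (IGF2R) and 11.12 (IGFBP2), median 10.84, in the knockdowns, with a difference of −0.27 (SE 0.141, limma adjusted p = 0.358) and 3 arrays inside the range of siCON. The cluster of PSMD4, the ubiquitin receptor of the base, went the other way. It was at 7.12 and 7.17 in siCON and between 7.16 (ZNF85) and 7.88 (IGF2R), median 7.47, in the knockdowns. Of its knockdown arrays 12 lay above both controls and 0 below both, at 0.31 (SE 0.158, limma adjusted p = 0.355). This cluster lay below the median of all clusters on the siCON arrays (7.75 and 7.76), and because PSMD4 has retrocopies its values may not stand for the gene alone. A further cluster, shared by PSMD4 with PIP5K1A and the retrogene PIPSL that joins copies of both, was at 4.78 and 4.77 in siCON and at 0.41 (limma adjusted p = 0.363), so signal of gene and copy cannot be told apart there.

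The 5 measured lid subunits were all lower, from −0.34 to −0.13, with a median of −0.14. PSMD12 was at 9.85 and 9.90 in siCON and between 8.88 (IGF2R) and 9.76 (ZNF429), median 9.63, in the knockdowns. The groups did not overlap, with a difference of −0.34 (SE 0.181, limma adjusted p = 0.363) and with IGF2R (−0.996) and ZNF85 (−0.71) as its lowest arrays. PSMD11, a lid subunit whose level sets how many 26S particles form in human stem cells, was at 11.04 and 10.97 in siCON and between 10.50 (ZNF91) and 11.01 (ZNF100), median 10.61, in the knockdowns. Its difference was −0.30 (SE 0.136, limma adjusted p = 0.329), with ZNF100 alone inside the range of siCON. PSMD3, PSMD6 and PSMD8 were at −0.13, −0.13 and −0.14. PSMD14, the deubiquitinase of the lid, was measured only in a cluster shared with MXRA7 (−0.18, limma adjusted p = 0.576).

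The assembly factors ranged widely. PSMD5, a chaperone that holds ATPases of the base before they join the core, had the smallest p and the largest difference of all 37 genes. It was at 11.79 and 11.78 in siCON and at 10.71 (IGFBP2), 11.23 and 11.56 (ZNF43) as lowest, median and highest of the knockdowns. All 14 arrays lay below siCON, with ZNF43 (−0.23) the nearest, and the mean difference was −0.58 (SE 0.171, limma adjusted p = 0.170, exact permutation p = 0.00833), a 1.49-fold lower estimate. PSMD5 was also the member farthest from siCON on 6 knockdown arrays, namely ZNF91, ZNF100, ZNF429, IGFBP2, ZNF665 and ZNF708. PSMD10 (gankyrin), another base chaperone, was at 10.66 and 10.64 in siCON and between 9.59 (ZNF528) and 10.72 (ZNF708), median 10.36, in the knockdowns. Its ZNF528 array stood apart at −1.06, with the next lowest array, ZNF85, at 10.17, and the mean difference was −0.33 (SE 0.178, limma adjusted p = 0.363). PSMD9, the last of these chaperones, was at −0.03, the smallest difference of the 37 genes.

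Of the factors that build the core, PSMG1, which pairs with PSMG2 to assemble the alpha ring, was at 9.10 and 9.09 in siCON and between 8.33 (ZNF665) and 8.90 (RASSF8), median 8.77, in the knockdowns. No array reached siCON, and the difference was −0.38 (SE 0.126, limma adjusted p = 0.209, exact permutation p = 0.00833). PSMG2 was measured only in 2 clusters shared with CEP76, at −0.21 and −0.34. PSMG3 was at 10.49 and 10.38 in siCON and between 10.07 (IGFBP2) and 10.43 (ZNF85), median 10.35, in the knockdowns, with 6 arrays inside the range of siCON and a difference of −0.12 (SE 0.107, limma adjusted p = 0.513). PSMF1, which encodes the inhibitor PI31, lay on the other side. It was at 10.13 and 10.14 in siCON and between 10.06 (ZNF43) and 10.50 (ZNF665), median 10.35, in the knockdowns. Of its arrays 13 lay above both controls and ZNF43 alone below, with a difference of 0.19 (SE 0.108, limma adjusted p = 0.379). PSME3IP1 was at −0.14.

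**Figure D3:**
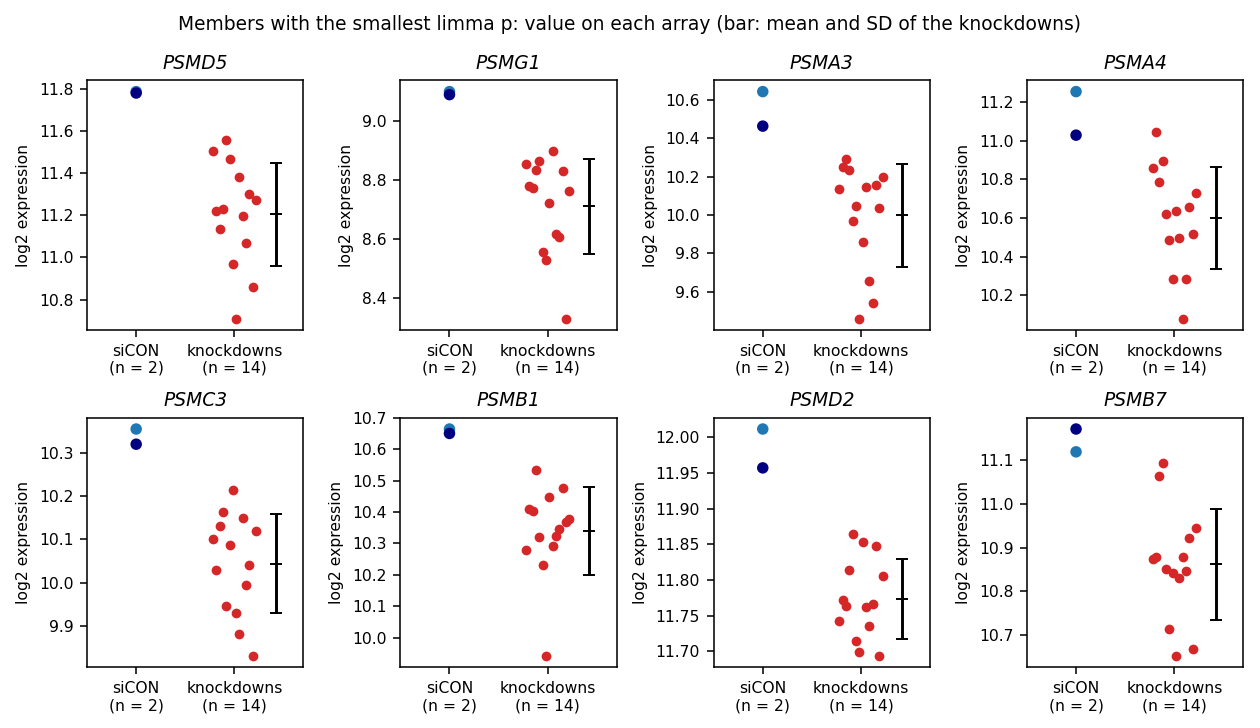
Log2 expression of the 8 proteasome genes with the smallest limma p on each array: both siCON arrays (24 h light blue, 72 h dark blue), the 14 knockdown arrays (red, spread sideways in a fixed order) and their mean with SD (black). Each panel has its own axis, which does not start at 0; PSMA4 is the one gene of the 8 in which a knockdown array, ZNF91 at 11.04, lies above a siCON array.

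TGACNNNGC, the core of the antioxidant response element that NRF1 and NRF2 bind, was searched on both strands of the same promoters. It was present in 12 of the 31 genes (38.7%) against 16.1% of the 27305 genes of the table, and before the start alone in 10 (32.3%) against 13.2%. The CCAAT box, which NF-Y binds, was present on either strand in 16 (51.6%) against 39.7%. Of the 8 genes with the smallest p, PSMD5, PSMG1 and PSMA4 held the antioxidant core before their start. Their windows are shown because these genes had 3 of the 4 smallest p-values, with the core in capitals, 5′ to 3′ along the gene.
PSMD5: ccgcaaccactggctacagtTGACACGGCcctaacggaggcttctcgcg
PSMG1: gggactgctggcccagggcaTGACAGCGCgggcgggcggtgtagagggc
PSMA4: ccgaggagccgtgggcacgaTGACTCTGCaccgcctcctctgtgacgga
They lie on the minus strand at chr9:120843028-120843076, on the minus strand at chr21:39183606-39183654 and on the plus strand at chr15:78540640-78540688 of GRCh38.p14. Genes outside this group held the core too, such as PSME1 and PSME2, which were not lower. No such core was found for PSMA3, PSMC3, PSMB1, PSMD2 and PSMB7, the others of the 8, though the table of promoters is not complete. The part of the core in the lower values was not tested.

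Array by array, the median difference over the 37 genes was below 0 on all 14 knockdown arrays, from −0.40 (IGF2R) to −0.04 (ZNF429), while the median over all clusters lay between −0.01 and 0.11. Between 23 (ZNF429) and 36 (ZNF43) of the 37 genes were lower than the siCON mean. The constitutive core was lowest on IGF2R, with a median of −0.47, and closest to siCON on ZNF429, at −0.05. For the 19S base and lid the range was narrower, from −0.29 (ZNF665) to −0.04 (ZNF429). The median was below 0 on all 14 arrays for the alpha ring, the constitutive beta ring, the non-ATPase base, the lid and both groups of chaperones, and on 13 for the ATPases, with ZNF429 the exception. For PSMB8, PSMB10, PSME1 and PSME2 together it was below 0 on 6 arrays only.

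The array that stood farthest from siCON was that of IGF2R, which held the lowest value of 9 of the 37 genes, among them PSMA3, PSMB1, PSMB5, PSMC2, PSMD1 and PSMD12. The ZNF43 array held the lowest value of 6, with PSMB8, PSMB10 and PSME1 among them, and the GTF2I array that of 4. With quantile-normalized values the median of the IGF2R array was −0.24 and still the lowest, next to −0.23 on ZNF43, and with median-centred values it was −0.51. The IGF2R array also had the smallest SD over all clusters (2.16), and the ZNF429 array, nearest to siCON in these genes, had an SD of 2.27 like siCON. Across arrays the median of the clusters of like brightness moved the same way, from −0.18 on IGF2R to 0.00 on ZNF429. The part of this narrowing in the differences of the proteasome genes was not tested. Without the IGF2R array the median over the 37 genes was −0.20 and 32 genes were still lower.

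**Figure D4:**
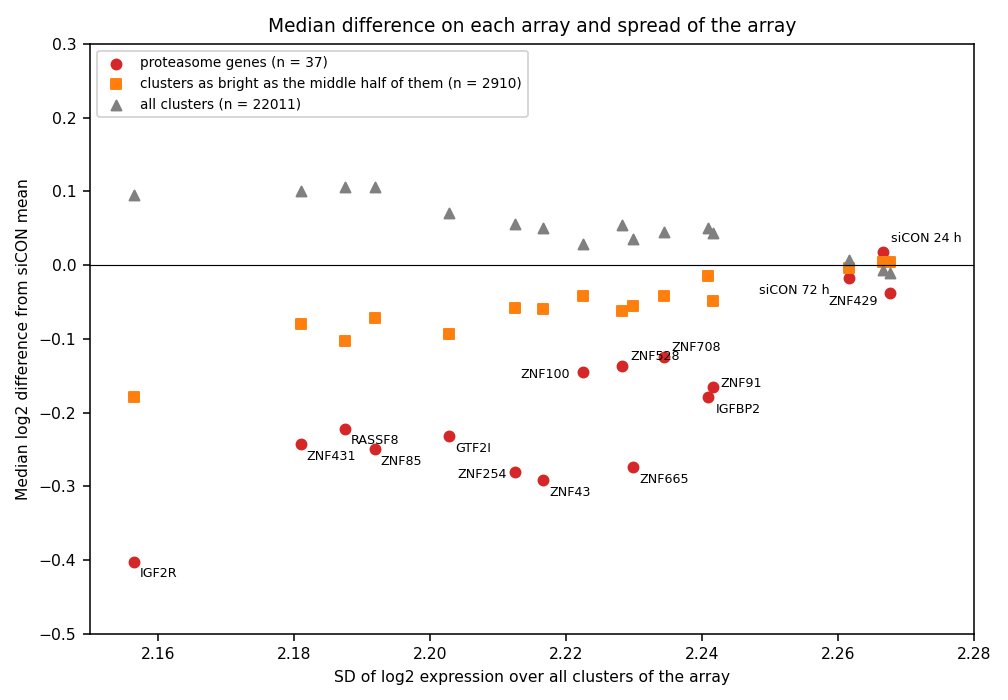
Median log2 difference from the siCON mean on each array against the SD of log2 expression over all 22011 clusters of that array, for the 37 proteasome genes (red), the 2910 clusters of like brightness (orange) and all clusters (grey). The proteasome median runs from −0.40 on IGF2R, the array with the smallest SD, to −0.04 on ZNF429, and lies below that of the clusters of like brightness on every knockdown array.

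Few single values were far from siCON. Of the 518 pairs of gene and knockdown array, 412 (79.5%) were below the siCON mean. A difference of −1 or lower was found in 5 pairs (0.965%), against 1.49% of all pairs of cluster and knockdown array, and a difference of 1 or higher in 0, against 0.672%. The 5 were PSMA3 on IGF2R (−1.09) and on ZNF431 (−1.01), PSMD5 on IGFBP2 (−1.07), PSMA4 on ZNF254 (−1.06) and PSMD10 on ZNF528 (−1.06). The share at −1 or lower was no higher than that over all clusters, and the gap between the shares was not tested. All but these 5 of the 412 lower pairs had smaller differences.

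The class of the silenced gene made no difference that passed the test. Between the 10 zinc finger and the 4 other knockdowns, limma called 0 of the 37 genes and 0% of all clusters. At an unadjusted p below 0.05 it counted 1 gene lower in the zinc finger knockdowns, against 12.5% of all clusters, and 0 higher, against 5.73%. The single gene was PSMD4 (−0.26, limma adjusted p = 0.258), which had its highest values on the IGF2R, GTF2I and RASSF8 arrays of the other class. Without the IGFBP2 array limma called 2700 clusters (12.3%) instead of 0, and PSMD4 (−0.39, limma adjusted p = 0.0293) was the 1 member among them (2.70%), a share below that of all clusters. The median difference between the classes was 0.04 over the 37 genes and −0.02 over all clusters, and 25 of the 37 genes were higher in the zinc finger class against 45.3% of all clusters.

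Partners of the proteasome that the symbol rule leaves out lay in the same direction. Of 10 further parts and partners, all measured, 9 were lower, with a median of −0.27, against 40.6% of all clusters lower and a median of 0.07. Of the 10, limma counted 5 lower at an unadjusted p below 0.05 (6.93% of all clusters) and called 0 (0.282%). In 5 no knockdown reached siCON (4.52% of all clusters). AKIRIN2, which carries the proteasome into the nucleus, was at 10.49 and 10.31 in siCON and between 9.62 and 10.15 in the knockdowns (−0.49, limma adjusted p = 0.112). USP14, a deubiquitinase that sits on the base, was at −0.39 (limma adjusted p = 0.175), and UBE3C, a ubiquitin ligase that binds the particle, at −0.57 (limma adjusted p = 0.188). All 3 were among the 5 genes whose groups did not overlap, the other two being UCHL5 and TXNL1. Of the 13 shuttle and segregase genes, which bring ubiquitinated proteins to the proteasome, 12 were measured, and all 12 were lower with a median of −0.16, again against 40.6% of all clusters. Among the 2910 clusters between the quartiles of the proteasome genes by mean, 63.1% were lower, with a median of −0.08. The part of brightness in either list was not tested. In 2 of them, ZFAND5 and ZFAND2A, no knockdown reached siCON, 3 were at an unadjusted p below 0.05 and 0 were called by limma. ZFAND5, an activator of the 26S particle that binds it directly, was at 10.83 and 10.87 in siCON and between 10.30 and 10.66 in the knockdowns (−0.39, limma adjusted p = 0.0905). ZFAND2A and UFD1 were at −0.36 and −0.32 (limma adjusted p = 0.267 and 0.289).

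The pathway that makes and processes NRF1 had no common direction, with 4 of 8 measured genes lower and a median of 0.01. Limma called 0 of them, against 0.282% of all clusters called lower and 0.259% called higher. NFE2L1 itself was at 10.31 and 10.35 in siCON and between 10.28 (GTF2I) and 10.75 (IGF2R) in the knockdowns, at 0.20 (limma adjusted p = 0.379). The ubiquitin ligase gene SYVN1 was above both controls on all 14 arrays (0.29, limma adjusted p = 0.260), while DDI2, the protease that cuts NRF1, was at −0.29 (limma adjusted p = 0.264) and NGLY1, which removes its sugars, at −0.30 (limma adjusted p = 0.366). Of the ubiquitin and E1 genes 3 of 6 were measured, UBA1 at −0.16, UBA6 at −0.15 and UBB at 0.06 (limma adjusted p = 0.451, 0.648 and 0.768). The antigen processing genes stood on the other side, with 10 of 15 measured, all 10 higher by their mean, against 59.4% of all clusters, with a median of 0.22 against 0.07. All 10 were also lower on the 72 h than on the 24 h siCON array, with differences from −0.36 (TAP1) to −0.04 (CALR). The part of this gap between the controls in the result was not tested. Limma called 0 higher, against 0.259% of all clusters, and counted 0 higher at an unadjusted p below 0.05, against 7.77%. In 0 genes did all knockdowns lie above both controls, against 4.81% of all clusters. TAPBP, ERAP1 and HLA-E were at 0.30, 0.35 and 0.32 (limma adjusted p = 0.380, 0.384 and 0.440), while B2M and CALR were at 0.00 and 0.05 (limma adjusted p = 0.994 and 0.755). All these comparisons share the same 2 siCON arrays.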

How the data were processed

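Gene expression was profiled on 16 arrays of GIST T1 cells, 2 siCON and 14 single knockdowns. The authors normalized the arrays by RMA with the oligo package, summarized core probes to genes and deposited log2 values for 22011 clusters; the submitters' processing notes also name hg19, and versions are not given in the sources used here. The text of the study places the first siCON array at another time than its label of 24 h, and the label is used here. The label of 1 knockdown spells GTF2I with a digit, read here as GTF2I after the study's text. Symbols came from the platform annotation, updated through gene IDs: 14432 clusters carry 1 symbol, 2408 several and 5171 none, and unmatched clusters are unnamed here. No member had more than 1 cluster of its own.

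Deposited values were used without further scaling or filter. Groups were compared in limma 3.58.1 (R 4.3.3; lmFit, eBayes, two-sided, Benjamini-Hochberg over all clusters, threshold 0.05), with the 14 different knockdowns as the group, so that their spread is the error. Single genes (the 5 with the smallest p) were also tested by exact permutation over 120 choices of arrays. Single arrays were set against the mean of both siCON arrays. Given in full are the 8 genes with the smallest p, the catalytic subunits, the 2 largest differences of each subcomplex, the member farthest from siCON on each array and, chosen after values were seen, PSME1 and PSME2; of each list of other pathway genes the 3 with the smallest p, NFE2L1 and TAP1 being added later. Members and lists were chosen with earlier results of these data known. Promoters came from the RefSeq table of GRCh38.p14, which is not complete. Alternatives were other scalings, a filter on dim clusters, arrays left out, other variance models, the pooled-variance t-test of the methods, and, chosen after seeing the data, clusters of like brightness as the background. The number of arrays limits the precision. Tables and plots were made in Python 3.11.15 with pandas 2.3.3 and matplotlib 3.10.9.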

Additional observations from a re-analysis of the deposited data

Results flagged for a closer look

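Dixon's test for a value far from the rest of its group was applied to the genes given in full and to the median over the 37 genes, within the 10 zinc finger and within the 4 other knockdowns. It marked 4 of 50 groups, and chance marks about 1 in 20. Within the other knockdowns, PSMB5 was lowest on the IGF2R array at 11.05, with the nearest array at 11.30, and PSMC2 was lowest on the same array at 9.74, with the nearest at 10.30. Within the zinc finger knockdowns, PSMB8 was lowest on the ZNF43 array at 7.32, with the nearest at 7.87, and PSMD10 was lowest on the ZNF528 array at 9.59, with the nearest at 10.17. Each is a single array without a replicate.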

How the results depend on the processing

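In all 23 alternatives of the comparison of knockdowns with siCON, limma, its variants and the methods' t-test called 0 of the 37 genes after adjustment, and 32 of them stayed lower. The median over the 37 genes was −0.27 with median-centred arrays, −0.18 with quantile normalization (0.04 over all clusters), −0.23 without the dimmest clusters and −0.21 in the zinc finger knockdowns alone. It ran from −0.24 to −0.19 with 1 array left out. The mean of a gene's clusters could change nothing, since no member had more than 1. Of 552 repeats for single genes, 551 kept the direction; the exception was PSME1, whose difference ran from −0.0138 without siCON replicate 2 to 0.129 without siCON replicate 1. Between zinc finger and other knockdowns the count of called genes ran from 0 to 1 with 1 array left out, the 1 being PSMD4 without the IGFBP2 array, where 12.3% of all clusters were called. On the IGF2R array the median over the 37 genes was −0.51 with median-centred and −0.24 with quantile-normalized values. The cause was not tested. Over all clusters, calls went from 62 lower and 57 higher to 8 and 5 without siCON replicate 1 and to 2 and 0 without siCON replicate 2. No paired analysis was possible because the labels give the knockdowns no replicate numbers shared with siCON. With 2 siCON arrays, differences of the size seen here are hard to call.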

Other observations

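The clusters that name a proteasome gene together with another gene were left out of the counts above. The cluster of PSMA2 and C7orf25 was at 7.65 and 7.27 in siCON and between 6.33 (IGF2R) and 7.54 (ZNF429) in the knockdowns, a difference of −0.42 (limma adjusted p = 0.365). The cluster of PSMG4 and SLC22A23 was at 6.87 and 7.003 in siCON and between 6.84 (IGFBP2) and 7.60 (IGF2R) in the knockdowns, a difference of 0.25 (limma adjusted p = 0.410). No value of these clusters belongs to 1 gene alone. Among the marker genes, limma called EPCAM lower in the knockdowns (−0.78, adjusted p = 0.0421), with 4.39 and 5.50 in siCON and at most 4.33 in a knockdown, all dim values, and the siCON arrays differed by 1.11.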
